A study of Mus musculus with 15 samples.

Results

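Maternal livers at 16 days post-coitum (dpc) were compared with livers at 8 dpc in mice that had received AAV8-null, a comparison that spans the change from mid- to late pregnancy. The 6 libraries, 3 at each stage, were taken by their labels from the 15 whole-liver RNA-seq libraries. The comparison and its gene lists were chosen with earlier results of these data known. All of the mice were wild-type (WT) females of the strain C57BL/6 by the labels and C57BL/6N by the methods, which give them as virgin females of 8 to 14 weeks, and every group carried a virus, so that no uninjected liver was among them. AAV8-null is an adeno-associated virus with the liver-specific thyroxine-binding globulin (TBG) promoter and no insert, given by tail vein injection before mating. Gestational stage was the only labelled difference between the 8 dpc and 16 dpc groups. The remaining libraries, used here only beside this comparison, were 3 non-pregnant (NP) livers with AAV8-null and 3 livers at each stage with AAV8-p21, in which the same promoter drives p21 (Cdkn1a), an inhibitor of cyclin-dependent kinases. The methods state that experiments were repeated in different mice, while the labels tie no library to an animal, so p-values measure the spread between these libraries.

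During pregnancy the rodent liver grows and takes on work for the fetuses as well as the mother: it secretes most plasma proteins, packages fat into lipoproteins, clears bile acids and foreign compounds, stores glycogen, and exchanges glucose and fatty acids with the mother's other tissues. Growth hormone, prolactin and the related placental lactogens, estrogens and glucocorticoids act on hepatocytes over this period through their receptors. Hepatocytes, which are mostly quiescent in the adult, can re-enter the cell cycle, and the genes for DNA replication and mitosis are transcribed in bursts that a CDK inhibitor such as p21 can suppress.

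The libraries held between 12280709 and 17615185 counts. Levels are given as counts per 1000000 (CPM) after TMM scaling, a correction for composition that matters here, since albumin (Alb), the defining hepatocyte transcript, took 9.17% ± 1.12 (SD, n = 3) of all counts at 8 dpc and 26.1% ± 2.27 at 16 dpc. The TMM factors were 1.19 to 1.23 at 8 dpc and 0.682 to 0.825 at 16 dpc. In a principal component analysis, where the leading component held 34.5% of the variance and the next 16.2%, the library of 8 dpc replicate 3 stood apart from replicates 1 and 2, at 0.41 against -43.7 and -51.2 on the leading component. The library of 16 dpc replicate 1 lay at 27.63 against 68.94 and 55.04. Results that rest on 1 library are given with and without it. In bulk liver, fewer cells of a type and less RNA per cell cannot be told apart.

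Between 8 dpc and 16 dpc, the genes called as changed in the AAV8-null liver included some for secreted proteins, hormone receptors, lipid handling, transporters, drug metabolism, innate immunity and the cell cycle. These groups were not tested as wholes, and the number of genes called in most of them depended on single libraries. Of 12172 genes tested, 658 (5.41%) passed both thresholds, an adjusted p-value of 0.05 and a log2 fold change of 1 in size (edgeR quasi-likelihood test, Benjamini-Hochberg adjustment). Of these differentially expressed genes (DEGs), 308 (2.53% of the genes tested) were higher and 350 (2.88%) lower at 16 dpc, and the median log2 fold change over all genes tested was 0.00. Scaled by library size alone, the median of all genes moved to -0.70 and the split to 153 higher and 3021 lower, so the changes below are relative to the bulk of the transcriptome. The 3 libraries at 16 dpc all lay above the 3 at 8 dpc in 301 DEGs and all below them in 321, and such a separation in either direction was found in 25.4% of all genes tested (1527 all above and 1570 all below). The count depended on single libraries: it was 1039 without 8 dpc replicate 3 and 248 without 8 dpc replicate 2, 274 without 8 dpc replicate 1, 319 without 16 dpc replicate 2 and 402 without 16 dpc replicate 3. In every fit with 1 of the 6 libraries left out, 194 DEGs were called, 114 higher and 80 lower.

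**Figure D1:**
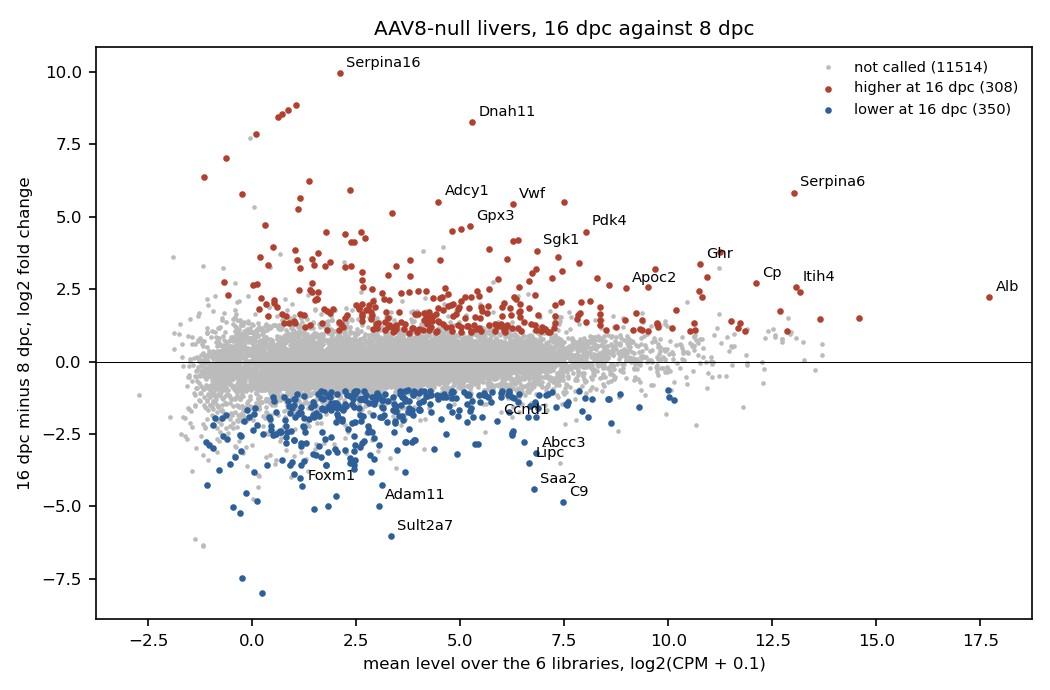
Log2 fold change between 16 dpc and 8 dpc AAV8-null livers (vertical axis) against the mean level over the 6 libraries, log2(CPM + 0.1) (horizontal axis), for the 12172 genes tested, with the 308 DEGs higher at 16 dpc and the 350 lower at 16 dpc in colour. Alb, with a log2 fold change of 2.23, lies at the far right, and the bulk of the genes lies around 0.

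Alb rose in all 3 late livers. Its level was 83805, 65701 and 78151 CPM at 8 dpc and 377255, 408470 and 284546 CPM at 16 dpc, a log2 fold change of 2.23 ± 0.25 (SE; adjusted p = 0.000124). The groups were far apart, and in NP livers Alb stood at 94876, 78250 and 92195 CPM, near its 8 dpc level. The gene (ENSMUSG00000029368) lies on chr5:90460897-90476602 of GRCm38, the build of all positions given here. Of the other hepatocyte markers, Apoa1 was also called higher, and Ttr (log2 fold change -0.55, adjusted p = 0.35) and Serpina1c (0.78, adjusted p = 0.232), which has close copies, were not called.

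Several of the largest rises were of genes that were nearly silent at 8 dpc. Dnah11, an axonemal dynein heavy chain of motile cilia on chr12:117877982-118199043, stood at 0.291, 0.119 and 0.312 CPM at 8 dpc and then at 78.3, 113 and 41.9 CPM at 16 dpc (log2 fold change 8.27 ± 0.46, adjusted p = 2.5e-07). Its exons overlap Cdca7l on the other strand, which was not among the genes tested, and the strand setting of the counting is not stated. Serpina6, the corticosteroid-binding globulin that carries glucocorticoids in plasma (chr12:103646630-103657212), went from 420, 371 and 65.6 CPM to 27151, 15817 and 6195 CPM (5.84 ± 0.82, adjusted p = 0.000878). Its lowest late library was still over 10 times its highest mid-pregnancy library, and 8 dpc replicate 3 was the low one of its group.

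Adcy1, a calcium-sensitive adenylyl cyclase, had 1.46, 0.834 and 0.52 CPM at 8 dpc and 39.6, 54.1 and 36.2 CPM at 16 dpc (log2 fold change 5.53 ± 0.36, adjusted p = 6.9e-07). Gpx3, the secreted glutathione peroxidase (chr11:54902453-54910377), had 2.33, 2.38 and 3.64 CPM and then 73.6, 86.1 and 55.7 CPM (4.68 ± 0.27, adjusted p = 2.5e-07). Nedd9, a scaffold protein of focal adhesions, had 2.15, 1.79 and 3.75 CPM and then 64.4, 44.4 and 76.6 CPM (4.58 ± 0.42, adjusted p = 2.2e-05). In these 3 genes the spread within a stage was small beside the step between the stages, and each was called with any 1 of the 6 libraries left out. Lower in level but also called in all 6 fits were Colgalt2, a collagen galactosyltransferase (4.48 ± 0.45), Slc24a3, a sodium, potassium and calcium exchanger (4.47 ± 0.44), and Ccdc38 (5.15 ± 0.42), which overlaps Snrpf on the other strand. Klk1b4, a kallikrein with many close copies, had 3.2, 2.86 and 1.09 CPM and then 77.2, 54.2 and 29.7 CPM (4.50 ± 0.63). Nptx1, a secreted neuronal pentraxin, had 0.116, 0.357 and 0 CPM and then 23.4, 2.83 and 3.2 CPM (5.93 ± 1.07), and without 16 dpc replicate 1, its high library, its value was 4.24 and still called. Serpina16 had no count in any 8 dpc or NP library and 14.3, 9.5 and 1.42 CPM at 16 dpc, at least 49.4-fold higher when 8 dpc is set at a floor of 3 counts per library. It lost its call without 8 dpc replicate 1 or replicate 2, where its fitted value was 9.96 in both fits, and a fitted value against a group at 0 is no bound.

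**Figure D2:**
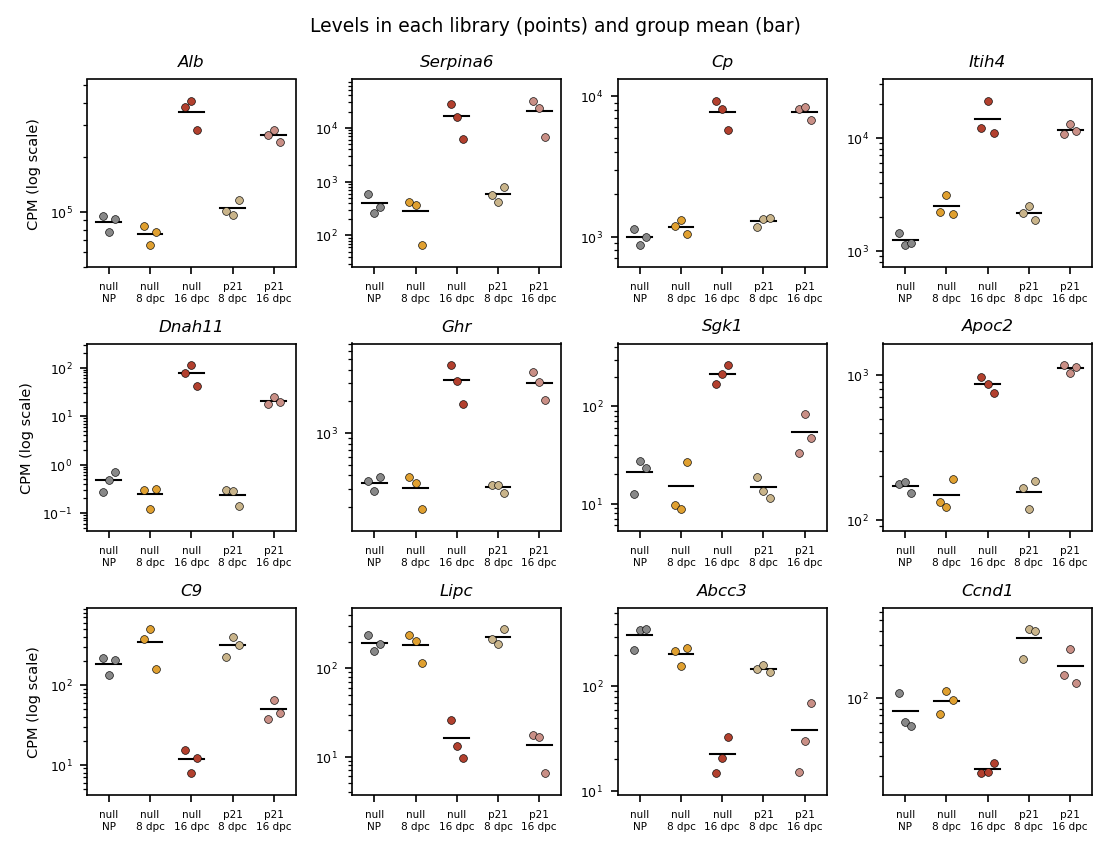
Level of 12 genes in each of the 15 libraries in CPM on a log scale, with 1 point a library and a bar at the mean of each group of 3. In all 12 genes the 3 AAV8-null 16 dpc libraries lie on one side of the 3 AAV8-null 8 dpc libraries, above them for Alb, Serpina6, Cp, Itih4, Dnah11, Ghr, Sgk1 and Apoc2 and below them for C9, Lipc, Abcc3 and Ccnd1.

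Secreted plasma proteins were among the groups with the most members called higher. Of 19 plasma carriers tested, 8 rose and none fell, with a median log2 fold change of 0.80 (0.08 scaled by library size alone) beside 0.00 for all genes. The 8 were Serpina6, Alb, Cp, Trf, Ahsg, Fetub, Pzp and Vtn, of which Pzp and Vtn were named after their values were seen. Between 5 and 8 of them were called with 1 library left out, the lowest count without 8 dpc replicate 1. Vtn kept its call in 1 of those 6 fits (0.96 to 1.33) and Pzp in 3 (0.85 to 1.22). Ceruloplasmin (Cp; chr3:19957054-20009145), the copper-carrying ferroxidase, stood at 1191, 1304 and 1041 CPM at 8 dpc and then at 9224, 8148 and 5703 CPM at 16 dpc (2.71 ± 0.23, adjusted p = 1.2e-05). Transferrin (Trf), the iron carrier, had 13495, 15281 and 9960 CPM and then 45556, 41021 and 22635 CPM (1.50 ± 0.31, adjusted p = 0.0119), and lost its call without 8 dpc replicate 1 at a log2 fold change of 1.52. Fetuin-A (Ahsg), an inhibitor of calcification, had 7252, 6363 and 6905 CPM and then 21260, 17277 and 18301 CPM (1.47 ± 0.20, adjusted p = 0.000682). None of these genes overlapped between the stages, and Cp and Ahsg were tight within each stage.

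Part of the clotting system rose. Of 34 coagulation and fibrinolysis genes tested, 8 were called higher and none lower, with a median of 0.59, which became -0.11 with library size alone. Prothrombin (F2) had 1691, 1732 and 1384 CPM at 8 dpc and 4555, 4829 and 3323 CPM at 16 dpc (1.40 ± 0.21, adjusted p = 0.00128). Factor VII (F7), which starts the extrinsic pathway, had 122, 134 and 80.8 CPM and then 425, 395 and 215 CPM (1.62 ± 0.31, adjusted p = 0.00804). Both were separate between the stages in all libraries. The largest change was of von Willebrand factor (Vwf; chr6:125546774-125686679), the platelet-binding carrier of factor VIII, from 3.38, 3.39 and 3.69 CPM to 78.5, 285 and 88.5 CPM (5.43 ± 0.61, adjusted p = 0.000124). Vwf is known as an endothelial gene, and 16 dpc replicate 2, its highest library, also had the highest sum of 9 endothelial markers, 380 CPM against 292 and 307 in the other late livers and 172 to 228 at 8 dpc. Of those 9 markers 1, Pecam1 (1.16 ± 0.29, adjusted p = 0.0318), was called, all 9 had log2 fold changes above 0 and their median was 0.74 (0.03 with library size alone), and their part in the Vwf result was not tested. The other 5 clotting genes called were F11, F5, F10, Thbd and Kng1, at 1.06, 1.19, 1.14, 1.95 and 1.04, of which F10 and Kng1 were named after their values were seen. Kng1 lost its call with any 1 library left out, F10 in 5 of the 6 fits, F11 and Thbd in 4 and F5 in 3. With 1 library left out 3 to 6 of the list were called, 3 without 8 dpc replicate 2 or 16 dpc replicate 2 and 4 without 8 dpc replicate 1. The fibrinogen chains, the most abundant members, were not called, with Fgg at 0.84 (adjusted p = 0.0861), Fga at 0.79 (0.123) and Fgb at 0.79 (0.101).

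Acute-phase and complement genes went in both directions. Itih4, an inter-alpha-trypsin inhibitor heavy chain made in inflammation (chr14:30886476-30902353), had 2210, 3107 and 2124 CPM at 8 dpc and 12258, 21060 and 11004 CPM at 16 dpc (2.57 ± 0.28, adjusted p = 9.4e-05). Its relative Itih3 went from 752, 1071 and 861 CPM to 1675, 2605 and 2470 CPM (1.33 ± 0.23, adjusted p = 0.00439). By contrast, C9, the pore-forming last component of the membrane attack complex (chr15:6445327-6498751), fell from 371, 498 and 158 CPM to 15.1, 7.83 and 12.3 CPM (-4.87 ± 0.44, adjusted p = 2.2e-05). Its lowest 8 dpc library was more than 10 times its highest 16 dpc library. Of 29 complement genes tested 1 rose and 2 fell (10.3% called, against 5.41% of all genes tested), and the median was 0.02. Without 8 dpc replicate 3 there were 3 fallers and 2 risers, and without 8 dpc replicate 1 or 2 or 16 dpc replicate 1 or 3 there was 1 faller. The riser was Cfi, the protease that inactivates C3b, at 1.16 ± 0.20 (adjusted p = 0.00439), while C3 itself, at 0.24 ± 0.21 (adjusted p = 0.541), was not called and had a value of -0.48 with library size alone. Of 32 acute-phase genes 3 rose and 2 fell (median 0.54, -0.16 with library size alone). Without 16 dpc replicate 1 the risers were 6, and none fell without 8 dpc replicate 2 or any of the 16 dpc livers. The fallers were serum amyloid genes. Saa4 had 204, 350 and 148 CPM and then 92.9, 79.6 and 64.6 CPM (-1.57 ± 0.45, adjusted p = 0.0496), and was called in 1 of the 6 fits that omit a library, that without 8 dpc replicate 3. Saa2 rested on 1 liver: its level was 596 CPM in 8 dpc replicate 2 and 6.92 to 18.8 CPM in the other 5, and without that library its log2 fold change was -0.44 and the call was lost. It was also lost without each of the 16 dpc livers, at -4.66 to -4.22.

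Receptors for growth hormone, prolactin and leukaemia inhibitory factor rose. The growth hormone receptor (Ghr; chr15:3317760-3583492) stood at 383, 341 and 191 CPM at 8 dpc and then at 4407, 3151 and 1909 CPM at 16 dpc (3.37 ± 0.35, adjusted p = 6.8e-05). The prolactin receptor (Prlr; chr15:10177238-10349180), which also binds placental lactogens, stood at 649, 609 and 331 CPM and then at 3331, 3133 and 2134 CPM (2.44 ± 0.33, adjusted p = 0.000673). The leukaemia inhibitory factor receptor (Lifr; chr15:7090614-7197489) went from 580, 594 and 201 CPM to 4979, 2855 and 2516 CPM (2.91 ± 0.46, adjusted p = 0.00213). In all 3 genes 8 dpc replicate 3 was the lowest library and 16 dpc replicate 1 the highest, and each stayed called with any 1 of the 6 libraries left out. Of 27 growth factor and insulin receptors 5 rose and 2 fell (median 0.28, -0.43 with library size alone). Without 8 dpc replicate 1 or 2 they were 3 and 1, and 1 fell without 16 dpc replicate 2 or 3. The fallers were Fgfr4, the hepatocyte receptor for the gut hormone FGF15, from 34.4, 41.8 and 30 CPM to 16, 15 and 14.4 CPM (-1.22 ± 0.20, adjusted p = 0.00269), and the neurotrophin receptor Ntrk2. The latter stood at 1.4, 1.79 and 0.468 CPM and then at 0.0891, 0 and 0 CPM, at least 4.66-fold lower against the floor of 3 counts. The call of Ntrk2 was lost without 8 dpc replicate 1 or 2 or 16 dpc replicate 2 or 3. In the wider list of growth hormone, prolactin and estrogen signalling, 3 of 31 genes rose and 1 fell, with a median of -0.33. None fell without 8 dpc replicate 1 or 2 or 16 dpc replicate 3, and 2 or 3 rose with any 1 library left out.

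Several genes of the glucocorticoid response rose, with 1 exception among those called. Of 22 such genes, which include Serpina6, 6 rose and 1 fell, with a median of 0.55 that became -0.17 with library size alone. The median was 0.31 without 8 dpc replicate 2 and 0.93 without 8 dpc replicate 3, where 7 rose and none fell. Hsd11b1, the enzyme that regenerates active glucocorticoid inside hepatocytes (chr1:193221634-193264075), had 561, 505 and 509 CPM at 8 dpc and 2051, 1915 and 1432 CPM at 16 dpc (1.78 ± 0.21, adjusted p = 0.000211). H6pd, which is not counted among the 22 and supplies the NADPH for that enzyme in the endoplasmic reticulum, had 531, 443 and 282 CPM and then 1025, 760 and 905 CPM (1.10 ± 0.23, adjusted p = 0.0132). Its call was lost without 16 dpc replicate 1 (log2 fold change 0.99) or 8 dpc replicate 2 (1.14) or 3 (0.88). Sgk1, a kinase induced by glucocorticoids that regulates ion transport (chr10:21882184-21999903), had 9.72, 8.75 and 26.8 CPM and then 168, 214 and 263 CPM (3.83 ± 0.48, adjusted p = 0.000359). The exception was Tsc22d3 (GILZ), an anti-inflammatory glucocorticoid target, with 64.7, 87.5 and 181 CPM at 8 dpc and 51.5, 26.9 and 21.1 CPM at 16 dpc (-1.74 ± 0.41, adjusted p = 0.0236). Its high library was 8 dpc replicate 3, without which the value was -1.20 and the call was lost, as it was without 16 dpc replicate 2 (-1.61) or 3 (-1.50).

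Some hormones and binding proteins that the liver itself releases also rose. Of 31 hepatokines and IGF-binding proteins 8 rose and 1 fell (median 0.64, -0.08 with library size alone), and 5 to 11 rose with 1 library left out, the highest count without 8 dpc replicate 3 and the lowest without 8 dpc replicate 2. None fell without 8 dpc replicate 1 or 2 or 16 dpc replicate 3, and 2 fell without 16 dpc replicate 1. Igfbp1, which binds insulin-like growth factors and is repressed by insulin (chr11:7197782-7202546), stood at 123, 79.8 and 273 CPM at 8 dpc and then at 981, 1499 and 1935 CPM at 16 dpc (3.21 ± 0.45, adjusted p = 0.000835). Igfbp4 stood at 1022, 1001 and 1055 CPM and then at 2449, 2170 and 1913 CPM (1.09 ± 0.20, adjusted p = 0.00512), with a value of 0.99 and no call without 16 dpc replicate 1. Adropin (Enho), a small peptide hormone of energy balance, had 15, 10.3 and 7.39 CPM and then 54.2, 23.1 and 33.7 CPM (1.77 ± 0.33, adjusted p = 0.00627). In each of these the late livers all lay above the mid-pregnancy livers.

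Lipoprotein and fatty acid genes changed in a few members each. Apoc2, the cofactor that activates lipoprotein lipase, stood at 133, 123 and 190 CPM at 8 dpc and then at 972, 871 and 748 CPM at 16 dpc (2.54 ± 0.23, adjusted p = 1.9e-05). Apoa1, the main protein of high-density lipoprotein, stood at 2540, 1665 and 4681 CPM and then at 13980, 16806 and 15683 CPM (2.39 ± 0.35, adjusted p = 0.00119). In the opposite direction, hepatic lipase (Lipc; chr9:70798128-70952226), which hydrolyses lipoprotein triglyceride, fell from 239, 204 and 115 CPM to 26, 13.2 and 9.61 CPM (-3.51 ± 0.44, adjusted p = 0.000359). The very low density lipoprotein receptor (Vldlr; chr19:27216484-27254231) fell from 20.9, 19.1 and 26.1 CPM to 2.14, 3.67 and 3.74 CPM (-2.79 ± 0.29, adjusted p = 6.8e-05). These were the 2 members that rose and the 2 that fell of 22 apolipoprotein and lipoprotein assembly genes, and none overlapped between the stages. In 11 of the 22 genes the late livers all lay above the 8 dpc livers and in 3 all below, against 1527 and 1570 of the 12172 genes tested. Without 8 dpc replicate 3 there were 4 risers. The abundant Apoe (0.59 ± 0.23, adjusted p = 0.131), a ligand of lipoprotein receptors, was not called and was -0.13 with library size alone.

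In fatty acid oxidation and the targets of PPAR-alpha, the nuclear receptor of the fasted liver, 7 of 39 genes rose and none fell, with a median of 0.80 (0.08 with library size alone). In 21 of the 39 the late livers all lay above the mid-pregnancy livers, against 1527 of the 12172 genes tested. The fatty acid transporter Cd36 had 90.6, 88.2 and 138 CPM at 8 dpc and 527, 835 and 604 CPM at 16 dpc (2.63 ± 0.35, adjusted p = 0.000552). Pdk4, the kinase that shuts off pyruvate dehydrogenase (chr6:5483351-5496309), had 36, 15.7 and 14.6 CPM and then 159, 1222 and 110 CPM (4.49 ± 0.82, adjusted p = 0.00558), so that its late livers all lay higher but 16 dpc replicate 2 was far above the other two. The same library was the highest for the lipid droplet proteins Plin2 (1815, 4899 and 2215 CPM at 16 dpc, 618, 476 and 820 CPM at 8 dpc, 2.22 ± 0.53, adjusted p = 0.0235) and Plin5 (165, 348 and 189 CPM at 16 dpc, 68.1, 60.4 and 107 CPM at 8 dpc, 1.58 ± 0.42, adjusted p = 0.0366). Pdk4 stayed called without that library at 2.60, while Plin2 and Plin5 lost their calls without it, at 1.66 and 1.17, and also without 8 dpc replicate 1 or 2, at values from 1.42 to 2.20. Plin5 lost it without 16 dpc replicate 3 as well. The list had 16 risers without 8 dpc replicate 3, whose mean log2 CPM over the list was 8.36 against 7.51 and 7.11 in the other 8 dpc livers, and 2 without 8 dpc replicate 1, 8 dpc replicate 2 or 16 dpc replicate 2. Of the 3 adipocyte markers, Adipoq and Plin1 were at or below 0.167 CPM in all 6 libraries. The other, the lipid droplet protein Cidec, named after its values were seen, had 1.16, 1.13 and 40.6 CPM at 8 dpc and 1.78, 217 and 71.3 CPM at 16 dpc and was not called (2.75 ± 1.74, adjusted p = 0.378). Its level was thus highest in 16 dpc replicate 2, as were Pdk4, Plin2 and Plin5, and its part in those results was not tested. Of 25 lipogenic genes 1 rose, the desaturase Fads2 (1.32), and 1 fell, the carbohydrate-responsive transcription factor Mlxipl (-1.91), while the desaturase Scd1 varied from 106 to 4555 CPM and was not called (-2.19 ± 0.94, adjusted p = 0.182). Of 27 cholesterol genes 1, Scap, the escort protein of SREBP, was called (1.02 ± 0.23, adjusted p = 0.0178). The median was -0.11, but -0.89 without 16 dpc replicate 2, 0.26 without 8 dpc replicate 2 and -0.84 with library size alone. The shares called, 8% of the lipogenic and 3.7% of the cholesterol genes, lay near the 5.41% of all genes tested. None of the 3 calls was firm: Mlxipl lost its call in 5 of the 6 fits that omit a library (-2.11 to -1.64), Fads2 in 4 (0.90 to 1.37) and Scap in 3 (0.77 to 0.99).

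In bile acid handling, 3 transporters and 1 receptor fell. Of 28 bile acid genes tested these 4 were called lower and none higher, with a median of -0.33, and the count was 4 to 6 with 1 library left out. Abcc3, an exporter of bile acids and conjugates into blood (chr11:94343295-94392997), had 220, 157 and 231 CPM at 8 dpc and 14.7, 20.6 and 32.4 CPM at 16 dpc (-3.17 ± 0.46, adjusted p = 0.00107). Slc10a1 (NTCP), the sodium-dependent importer of bile acids, had 585, 547 and 746 CPM and then 270, 289 and 310 CPM (-1.11 ± 0.18, adjusted p = 0.0027). It fell below the fold threshold, at -0.97, without 8 dpc replicate 3. Slco1b2, an importer of organic anions, had 950, 838 and 1058 CPM and then 346, 357 and 254 CPM (-1.57 ± 0.31, adjusted p = 0.00876). The remaining call was Fgfr4, described above, and all 4 were separate between the stages.

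Among drug- and steroid-metabolizing enzymes, more members fell than rose. Of 42 cytochrome P450 genes of families 1 to 3, 5 fell and 1 rose (median -0.65). The count of fallers was 2 to 9 with 1 library left out, highest without 8 dpc replicate 3 and 2 without 8 dpc replicate 1 or 2 or 16 dpc replicate 3, and a riser was called only in the fit without 16 dpc replicate 3. Cyp2c37, an arachidonic acid epoxygenase and hydroxylase of the Cyp2c family, had 683, 697 and 537 CPM at 8 dpc and 209, 115 and 117 CPM at 16 dpc (-2.12 ± 0.34, adjusted p = 0.00253). Cyp2c67 had 327, 321 and 188 CPM and then 128, 119 and 69.7 CPM (-1.40 ± 0.27, adjusted p = 0.0072). The Cyp2c genes lie among near-identical copies, so a single copy's value is uncertain. The abundant Cyp2e1, which metabolizes ethanol, was lower in all 3 late livers but not called (-0.74 ± 0.28, adjusted p = 0.133), and neither was Cyp3a11 (-0.91 ± 0.29, adjusted p = 0.074). Among 34 glutathione transferases and UGTs 4 fell and 1 rose (median -0.51). The fallers were 6 without 8 dpc replicate 3, 2 without 16 dpc replicate 2 and 1 without 8 dpc replicate 1 or 2 or 16 dpc replicate 3, and 1 rose in 2 of the 6 fits. Among 15 cytosolic sulfotransferases 2 fell and 2 rose (median -0.23). With 1 library left out 2 fell throughout, while none rose without 8 dpc replicate 1, 2 rose without 16 dpc replicate 2 and 1 rose without each of the others. Sult1d1 stood at 175, 146 and 137 CPM and then at 57.9, 55.4 and 45.2 CPM (-1.53 ± 0.23, adjusted p = 0.00129). Sult2a7 stood at 10.5, 43.5 and 5.31 CPM and then at 0.713, 0 and 0.178 CPM (-6.04 ± 0.96, adjusted p = 0.00221), the largest fall named. Without 8 dpc replicate 2, its high library, the value was -4.72, and without 16 dpc replicate 1 it was -7.71, called in both fits. Sult2a7 has close copies, and its value is uncertain to that extent. Cyp17a1, the 17-alpha-hydroxylase of steroid synthesis, went the other way, from 53.7, 57.1 and 115 CPM to 724, 389 and 539 CPM (2.87 ± 0.43, adjusted p = 0.00133).

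Enzymes that break down amino acids were called lower in 4 of 47 cases and higher in none (median -0.11). The share called, 8.51%, lay near the 5.41% of all genes tested, as did the 6.67% of the glycolytic and 4.76% of the glycogen genes below. Cth, which makes cysteine in the transsulfuration pathway, stood at 586, 522 and 529 CPM at 8 dpc and then at 230, 162 and 280 CPM at 16 dpc (-1.28 ± 0.26, adjusted p = 0.00989), and was called with any 1 of the 6 libraries left out. The others were Gls2, the liver glutaminase (-1.26 ± 0.26, adjusted p = 0.013), Hal, histidine ammonia-lyase (-1.28 ± 0.30, adjusted p = 0.0236), and Prodh, proline dehydrogenase (-1.40 ± 0.35, adjusted p = 0.0295). All 3 lost their calls without 8 dpc replicate 1 or 2, at values between -1.37 and -1.10, and in 1 or 2 further fits. The list had 1 member called lower without 8 dpc replicate 1 or 2 and 6 without 8 dpc replicate 3, when 4 were called higher, and 2 lower without 16 dpc replicate 2 or 3. Cps1, the entry enzyme of the urea cycle, was not called (-0.12 ± 0.53, adjusted p = 0.929), with 1615 to 4307 CPM at 16 dpc and 2686 to 3531 CPM at 8 dpc, and was 0.16 without 16 dpc replicate 1. Of 30 glycolytic and gluconeogenic genes 2 fell, Pck2, the mitochondrial phosphoenolpyruvate carboxykinase (-1.59 ± 0.26, adjusted p = 0.00279), and Slc2a9, a urate transporter (-1.06 ± 0.18, adjusted p = 0.00298), the latter lost without 8 dpc replicate 3 at -0.95. Without that library 3 of the 30 were called higher and 1 lower. Of 21 glycogen genes 1, the glycogen-binding Stbd1, was called (1.01 ± 0.29, adjusted p = 0.0494), and the median was -0.14. That call held in 1 of the 6 fits that omit a library, the one without 16 dpc replicate 3.

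Interferon-response genes lay lower at 16 dpc throughout. All 36 tested had log2 fold changes below 0, with a median of -1.13, and 10 were called lower and none higher. In 19 of the 36 the late livers all lay below the mid-pregnancy livers, against 1570 of the 12172 genes tested. Usp18, the protease that removes ISG15 and damps interferon signalling (chr6:121245906-121270917), had 14.3, 12.6 and 12.3 CPM at 8 dpc and 3.21, 3.67 and 3.56 CPM at 16 dpc (-1.91 ± 0.26, adjusted p = 0.000769). Gbp7, a guanylate-binding protein, had 25.3, 26 and 16.2 CPM and then 3.3, 3.92 and 6.23 CPM (-2.33 ± 0.39, adjusted p = 0.00307). Ddx58 (RIG-I), the sensor of viral RNA, had 19.9, 21.9 and 27.7 CPM and then 9.09, 7.25 and 9.61 CPM (-1.42 ± 0.27, adjusted p = 0.00682). These 3 were called with any 1 of the 6 libraries left out, and the rest of the 10 were not. The mean log2 CPM over the list was 4.36, 4.45 and 3.60 in the 8 dpc livers and 3.40, 2.98 and 2.94 in the 16 dpc livers, so 8 dpc replicate 3 lay nearest to the late group. Without it 17 were called lower, and 3 were without 8 dpc replicate 1 or 2 or 16 dpc replicate 2 or 3. The 8 Kupffer cell and macrophage markers summed to 459, 404 and 218 CPM at 8 dpc and to 321, 324 and 214 CPM at 16 dpc, with none called, and their part in the interferon values was not tested.

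Genes of mitosis had the largest median shift of the 36 pathway lists, a median log2 fold change of -3.08 over the 40 tested, 22 called lower and none higher. In 9 of the 44 listed genes the late livers all lay below the 8 dpc livers and in 1 all above, against 1570 and 1527 of the 12172 genes tested. The 8 dpc livers were not alike: the mean log2 CPM over the list was 3.18 and 3.23 in replicates 1 and 2 and 0.70 in replicate 3, beside 1.02, -0.14 and 0.08 at 16 dpc and 1.12, -0.04 and 0.20 in NP livers. Mki67, the gene of the proliferation marker Ki67, had 43.8, 45.4 and 4.11 CPM at 8 dpc and 8.47, 1.58 and 1.51 CPM at 16 dpc, and was not called (-3.01 ± 0.90, adjusted p = 0.0591). Anln (chr9:22332012-22389188), a scaffold of the cleavage furrow, had 6.46, 6.91 and 1.04 CPM and then 0.357, 0.667 and 0.534 CPM (-3.18 ± 0.61, adjusted p = 0.00777), the only member called in every fit with 1 library left out. Top2a, the topoisomerase that untangles chromosomes, had 17, 20.9 and 1.82 CPM and then 1.52, 0.25 and 1.07 CPM (-3.81 ± 0.87, adjusted p = 0.0189). Hmmr, a spindle protein and hyaluronan receptor, had 13.6, 12.9 and 1.61 CPM and then 2.05, 0 and 0.534 CPM (-3.44 ± 0.98, adjusted p = 0.0489), and 16 dpc replicate 1 overlapped with 8 dpc replicate 3. By DESeq2 on all libraries its adjusted p was 0.0506. Top2a and Hmmr both lost their calls without 8 dpc replicate 1 or 2 or 16 dpc replicate 2 or 3, at values from -3.91 to -2.85. Without 8 dpc replicate 3 the count of members called lower was 41, in a fit with its own filter on low counts, and without 16 dpc replicate 1 it was 24. It was 1 without 8 dpc replicate 1, 8 dpc replicate 2 or 16 dpc replicate 2 and 2 without 16 dpc replicate 3, so the count rested on single livers while the median stayed between -4.23 and -2.74.

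**Figure D3:**
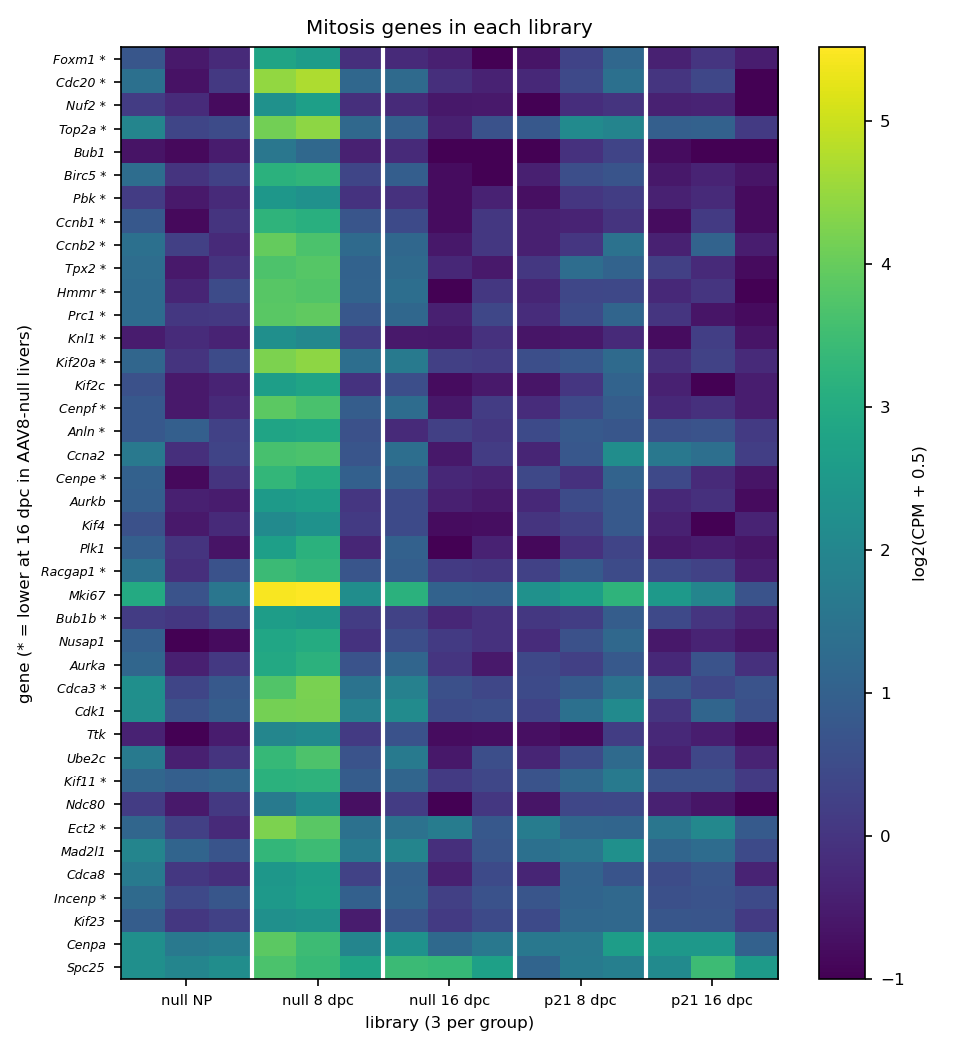
Level of the 40 mitosis genes tested, log2(CPM + 0.5) in colour, in each of the 15 libraries (horizontal axis, 3 per group), with genes ordered by their log2 fold change and an asterisk on the 22 called lower at 16 dpc in AAV8-null livers. The high values lie in replicates 1 and 2 of the AAV8-null 8 dpc livers, and replicate 3 of that group is close to the NP and 16 dpc livers.

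Many promoters of mitotic genes are known to hold a cell cycle homology region (CHR), which recruits the DREAM repressor in quiescent cells and the MYB and FOXM1 activators in dividing ones, and CCAAT boxes, which bind NF-Y. Because 22 of the 40 mitosis genes tested were called lower and none higher, the windows of 6 of those called are printed. They run from 100 bases before to 50 bases after the start of transcription, from RefSeq on GRCm38.p6 and 5′ to 3′ on the gene's strand. Capitals mark the CHR letters TTTGAA and the CCAAT letters, each read on either strand (TTCAAA and ATTGG on the reverse). Motifs were searched in the whole RefSeq window, from 250 bases before to 50 after the start, and the members are those with a motif there and the smallest adjusted p-values, at most 4 for each motif. In Bub1b the CCAAT letters stand before the stretch printed. So do further matches in Top2a, of the CHR letters at -179 and of the CCAAT letters at -227, -189 and -149.
Anln, chr9:22389157-22389306, minus strand: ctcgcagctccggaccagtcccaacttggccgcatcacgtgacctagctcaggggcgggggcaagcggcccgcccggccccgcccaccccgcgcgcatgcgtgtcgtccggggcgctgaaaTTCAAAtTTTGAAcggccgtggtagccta
Knl1, chr2:119047019-119047168, plus strand: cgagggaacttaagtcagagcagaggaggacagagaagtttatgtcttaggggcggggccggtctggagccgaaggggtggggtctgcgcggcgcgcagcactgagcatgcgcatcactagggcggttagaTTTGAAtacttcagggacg
Top2a, chr11:99024140-99024289, minus strand: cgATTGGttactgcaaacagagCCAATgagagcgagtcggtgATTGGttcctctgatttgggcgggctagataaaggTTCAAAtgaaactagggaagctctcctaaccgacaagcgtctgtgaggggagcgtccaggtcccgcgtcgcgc
Kif11, chr19:37376282-37376431, plus strand: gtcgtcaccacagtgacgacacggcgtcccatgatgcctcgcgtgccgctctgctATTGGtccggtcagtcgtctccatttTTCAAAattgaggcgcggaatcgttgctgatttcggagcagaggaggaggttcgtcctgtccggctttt
Bub1b, chr2:118598111-118598260, plus strand: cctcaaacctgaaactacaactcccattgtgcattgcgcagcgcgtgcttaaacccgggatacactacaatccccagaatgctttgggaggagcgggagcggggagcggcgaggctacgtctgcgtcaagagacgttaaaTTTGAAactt
Racgap1, chr15:99651607-99651756, minus strand: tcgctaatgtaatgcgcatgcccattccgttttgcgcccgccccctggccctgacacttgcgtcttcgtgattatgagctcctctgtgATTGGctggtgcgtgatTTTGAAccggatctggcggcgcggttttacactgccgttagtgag
In the whole windows, the CHR letters stood in 18.1% of 27025 RefSeq promoters and in 26 of the 33 tested members with a promoter entry (78.8%), and in 13 of the 17 called ones (76.5%). The CCAAT letters stood in 37.9% of all promoters, in 25 of the 33 members (75.8%) and in 13 of the 17 called (76.5%). The shares in the called members lay close to those in the list, and a match of letters is a description of the sequence, not of binding.

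The levels of these 6 genes followed the list. Knl1, a kinetochore scaffold, had 4.25, 3.63 and 0.624 CPM at 8 dpc and 0.178, 0.167 and 0.445 CPM at 16 dpc (-3.39 ± 0.76, adjusted p = 0.0178). Kif11, the spindle motor that pushes poles apart, had 8.44, 8.81 and 1.35 CPM and then 1.69, 0.583 and 0.801 CPM (-2.59 ± 0.61, adjusted p = 0.0217). Bub1b, of the spindle checkpoint, had 5.65, 5.12 and 0.624 CPM and then 0.713, 0.333 and 0.445 CPM (-2.91 ± 0.70, adjusted p = 0.0245). Racgap1, a regulator of cytokinesis, had 10.4, 9.29 and 1.14 CPM and then 1.43, 0.583 and 0.534 CPM (-3.02 ± 0.76, adjusted p = 0.0294). In Kif11, Bub1b and Racgap1 the low 8 dpc library, replicate 3, overlapped with 16 dpc replicate 1, and all 4 genes lost their calls without either of the other 8 dpc libraries, at values between -3.17 and -2.25, or without 16 dpc replicate 2, at values between -3.15 and -2.30. Each lost it in 1 further fit.

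Cyclin D1 (Ccnd1; chr7:144929931-144939925), which carries growth signals into G1, behaved apart from the mitotic genes in its libraries. It stood at 72.6, 116 and 95.7 CPM at 8 dpc and then at 21.1, 21.7 and 26.3 CPM at 16 dpc (-2.04 ± 0.34, adjusted p = 0.00307). Here 8 dpc replicate 3 lay between the other 8 dpc livers, and the gene was called with any 1 of the 6 libraries left out. NP livers had 111, 60.9 and 56.1 CPM, within or near the 8 dpc range. Of 39 genes of G1/S and DNA replication 8 were called lower and none higher (median -0.99). Among them were Rfc5, a clamp loader subunit (10.1, 9.41 and 4.53 CPM and then 3.21, 3.08 and 1.78 CPM, -1.57 ± 0.36, adjusted p = 0.0191), and Mcm6, a helicase subunit (10.7, 12.9 and 3.02 CPM and then 2.23, 2.17 and 1.87 CPM, -2.08 ± 0.51, adjusted p = 0.0263). That count was 20 without 8 dpc replicate 3, 3 without 16 dpc replicate 1, 1 without 16 dpc replicate 3 and 0 without 8 dpc replicate 1 or 2 or 16 dpc replicate 2. Cdkn1a, the endogenous p21 gene, stood at 27.2, 16.5 and 33.4 CPM at 8 dpc and then at 64.4, 127 and 59.8 CPM at 16 dpc and was not called (1.71 ± 0.66, adjusted p = 0.136), although no late liver overlapped with the earlier ones.

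Several large groups held no or few calls. List medians near 0 also turned sign with 1 library left out, which held for the cholesterol, lipogenic, complement, glycolytic, glycogen, oxidative phosphorylation and transcription factor lists. None of 83 cytosolic ribosomal protein genes was called, with a median of 0.25 that became -0.46 with library size alone, and none of 55 genes of endoplasmic reticulum stress and the secretory pathway was called (median 0.37, -0.34 with library size alone). Nor was any of 19 circadian clock genes (0.22, -0.50 with library size alone) or of 29 hepatocyte transcription factors (-0.05). Of 79 nuclear genes of oxidative phosphorylation 1, Cox7a1, a low muscle-type subunit named after its values were seen, was called lower. It stood at 0.524, 0.298 and 1.09 CPM and then at 0.0891, 0.0833 and 0.089 CPM, at least 2.44-fold lower against the floor of 3 counts, and it lost its call with any 1 of the 6 libraries left out. The median of that list was -0.02. Of the genes that the study followed for glucose and glycogen metabolism and for zonation, Sgk1, H6pd, Pdk4 and Cyp17a1, its periportal marker, were called higher, as described above. The pericentral glutamine synthetase Glul was not called. It had 626, 622 and 631 CPM at 8 dpc and 641, 626 and 791 CPM at 16 dpc (0.13 ± 0.18, adjusted p = 0.718), with a value of -0.56 with library size alone. Axin2, a Wnt target (-0.79 ± 0.42, adjusted p = 0.28), Tbx3, a pericentral transcription factor (-0.43 ± 0.45, adjusted p = 0.617), Cyp1a2, a pericentral cytochrome (-0.58 ± 0.62, adjusted p = 0.639), and Slc45a3, a sugar transporter (0.59 ± 0.37, adjusted p = 0.377), were not called. Tbx3 turned to 0.03 without 16 dpc replicate 2, and Slc45a3 was -0.13 with library size alone.

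**Figure D4:**
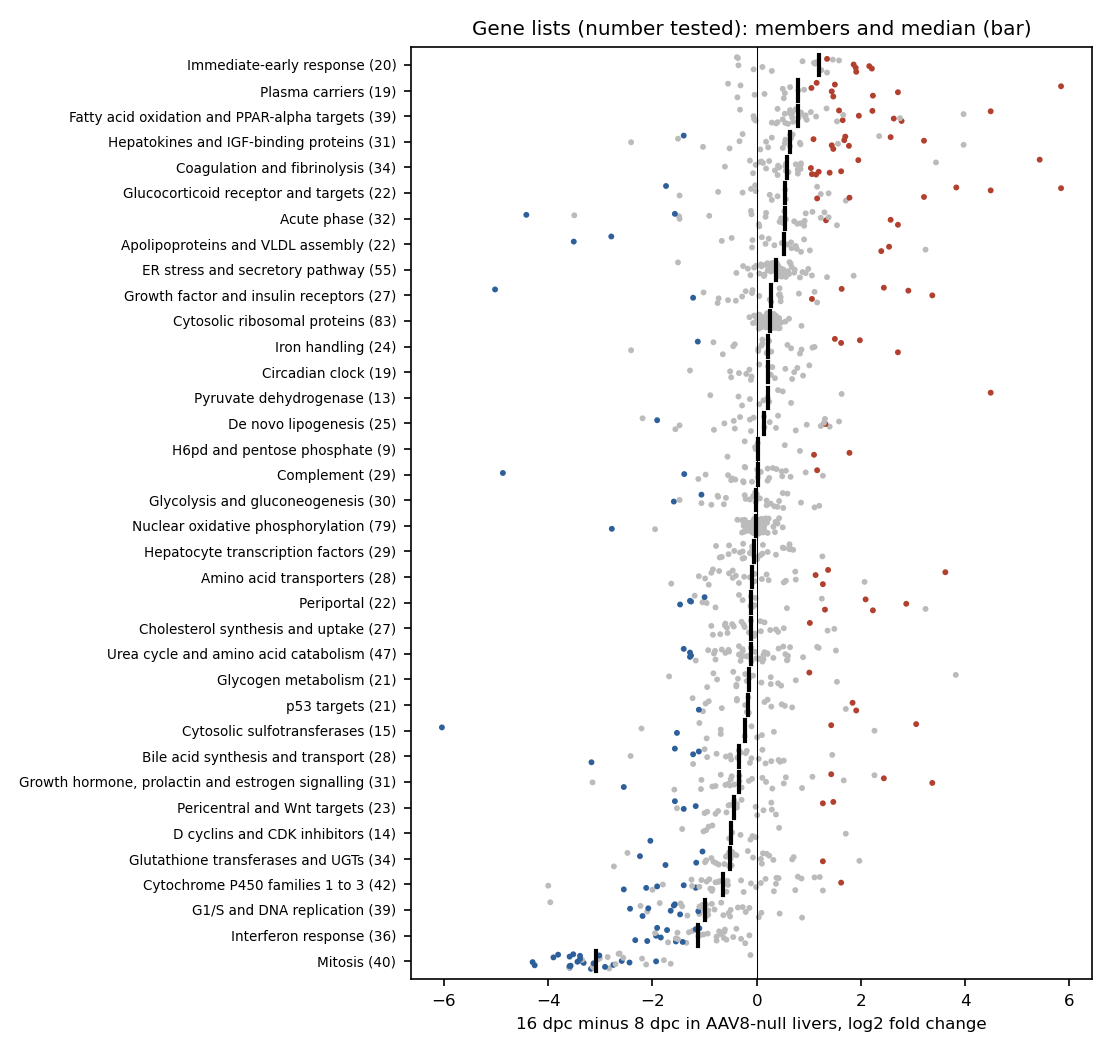
Log2 fold change between 16 dpc and 8 dpc AAV8-null livers (horizontal axis) of the tested members of 36 gene lists (rows, number tested in brackets), with members called higher in red, lower in blue, not called in grey, and a bar at the median of each list. The medians run from 1.20 for immediate-early genes to -3.08 for mitosis genes. Ribosomal genes lie between -0.14 and 0.86, 78 of 83 of them above 0, and oxidative phosphorylation genes between -2.78 and 0.50.

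Few markers of other cell types were called. The endothelial and stellate sums were higher at 16 dpc in all 3 livers, the latter at 239, 316 and 269 CPM against 202, 124 and 138 CPM, and in each list 1 gene was called, Pecam1 and decorin (Dcn, 1.04 ± 0.22, adjusted p = 0.0144), both named after their values were seen. The stellate median of 0.53 became -0.17 with library size alone. Without 16 dpc replicate 2 neither was called, at 0.79 and 0.96, nor was either without 8 dpc replicate 2, at 0.98 and 0.88, or 16 dpc replicate 3, at 1.21 and 1.0, and Pecam1 also lost its call without 8 dpc replicate 1. The bile duct sum was 24.2, 26.8 and 18.0 CPM at 8 dpc and 17.3, 8.41 and 15 CPM at 16 dpc. The T and NK cell sum was 2.27, 2.44 and 1.46 CPM and then 1.34, 0.75 and 0.534 CPM, so that both sums were lower in all 3 late livers. Higher in all 3 late livers were the B and plasma cell sum, at 3.72, 3.93 and 3.8 CPM and then at 5.53, 5.33 and 5.61 CPM, and the erythroid sum, at 89.3, 101 and 102 CPM and then at 169, 109 and 163 CPM. The former rested on Jchain, an immunoglobulin joining chain named after its values were seen (1.17), since the other 2 markers tested stood at -0.23 and -0.04, and the median of the list became -0.74 with library size alone. The erythroid median of 0.36 became -0.30 with library size alone. Neutrophil markers ranged from 4.7 to 29.1 CPM and the mesothelial sum from 0.676 to 2.05 CPM, both with overlap between the stages, and pancreatic markers did not exceed 0.156 CPM. No bile duct, T and NK cell, B and plasma cell, mesothelial, neutrophil or erythroid marker was called, and the pancreatic markers were too low to be tested.

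The same stages were also profiled with AAV8-p21, in 6 libraries that share none with the AAV8-null comparison, and the change from 8 to 16 dpc there went the same way in most DEGs. Between the AAV8-p21 stages 334 genes (2.74%) were called, 211 higher and 123 lower, and 154 to 393 were called with 1 of those 6 libraries left out, the fewest without AAV8-p21 8 dpc replicate 1. Of them 245 were also DEGs with AAV8-null, all in the same direction, which is 37.2% of the AAV8-null DEGs and 73.4% of the AAV8-p21 DEGs. Of the 658 AAV8-null DEGs 642 had a log2 fold change of the same sign with AAV8-p21, against 75.6% of all genes tested. The median size over the AAV8-null DEGs was 1.72 with AAV8-null and 1.17 with AAV8-p21, and over the AAV8-p21 DEGs it was 1.68 and 1.82, each choice of genes favouring the comparison that made it. The difference itself, the interaction of stage and virus, was called for 0 genes by edgeR, with 376 of 12172 genes at an unadjusted p-value under 0.05, a smaller share than the 0.05 of genes that no interaction at all would give. It was called for 0 genes by limma voom and DESeq2 on all libraries, and for 14 genes by DESeq2 on the 12 compared libraries alone. Among the 413 AAV8-null DEGs not called with AAV8-p21, which were chosen by their call in 1 comparison, 102 had an unadjusted interaction p-value under 0.05 and none an adjusted one.

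Side by side, the values of several secretory and receptor genes lay close with both viruses, and those of other genes lay further apart. With AAV8-p21 the log2 fold change was 5.12 for Serpina6, 3.27 for Ghr, 2.12 for Prlr, 2.59 for Cp, 2.83 for Apoc2 and -4.07 for Lipc, against 5.84, 3.37, 2.44, 2.71, 2.54 and -3.51 with AAV8-null, and all of these were called. Alb was called with both, at 1.33 with AAV8-p21 and 2.23 with AAV8-null, as were Sgk1, at 1.89 and 3.83, and C9, at -2.67 and -4.87. Gpx3 was the larger with AAV8-p21, at 6.17 against 4.68. Unadjusted interaction p-values were 0.0179 for Alb, 0.00654 for Sgk1, 0.00112 for C9 and 0.000647 for Gpx3, and none passed adjustment over all genes. Pdk4, with 0.53 in AAV8-p21 livers (adjusted p = 0.782) and 4.49 in AAV8-null livers, had an unadjusted interaction p of 0.00195, and Ccnd1, with -0.85 (adjusted p = 0.194) and -2.04, had one of 0.0216. Neither passed adjustment, and these values do not show that the change differed between the viruses. In the mitosis list no gene was called with AAV8-p21, and the median was -1.0. Its mean log2 CPM there was 0.09, 0.63 and 1.09 at 8 dpc and 0.23, 0.37 and -0.23 at 16 dpc, within or below the range of NP livers. In the interferon list 4 genes were called lower with AAV8-p21 and the median was -0.74.

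**Figure D5:**
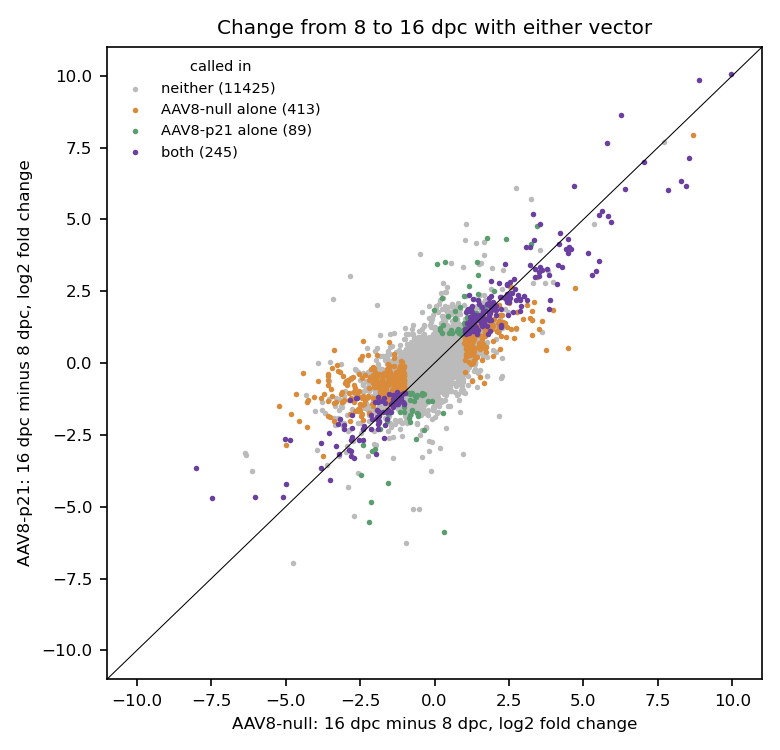
Log2 fold change between 16 dpc and 8 dpc with AAV8-p21 (vertical axis) against that with AAV8-null (horizontal axis) for the 12172 genes tested, coloured by whether a gene was called in neither, one or both comparisons, with the line of equality. The 245 genes called in both lie in the upper right and lower left, and most AAV8-null DEGs lie nearer to 0 on the AAV8-p21 axis.

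Levels in NP livers give an outer point for the same genes, with the caution that each contrast with NP shares libraries with the comparison above. Between NP and 8 dpc AAV8-null livers 0 genes were called by edgeR, with 803 at an unadjusted p-value under 0.05 and 58 called by DESeq2, and between NP and 16 dpc livers 598 were called, 347 higher and 251 lower. Against NP, Serpina6 was -0.46 at 8 dpc and 5.38 at 16 dpc, Ghr -0.16 and 3.21, Cp 0.24 and 2.94, Lipc -0.08 and -3.59, and Vldlr -0.08 and -2.87, so that these genes stood near their NP level in mid-pregnancy. Lifr, at 1.45 and 4.36, and Itih4, at 0.98 and 3.56, had values above 0 at both stages. Top2a stood at 2.96 against NP at 8 dpc and at -0.84 at 16 dpc, and Cdc20, an activator of the anaphase-promoting complex, at 4.13 and -0.13, but neither was called in either contrast. Over the whole mitosis list, replicates 1 and 2 of the 8 dpc livers lay above all NP livers and replicate 3 lay within their range.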

How the data were processed

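Whole-liver RNA was sequenced in 15 libraries of 5 groups of 3, and the 6 AAV8-null libraries at 8 dpc and 16 dpc were compared. According to the methods and the submitters' processing notes, the authors made poly(A) libraries with a stranded kit, sequenced single ends, used cutadapt 1.14 for trimming and HISAT2 2.1.0 for alignment to mm10. Uniquely placed reads were then counted per protein-coding gene (HTSeq 0.12.4). The deposited table holds these raw counts for 21702 genes, not normalized. The strand setting of the counting is not given in the sources used here, so overlapping genes and genes with close copies are uncertain. Of the genes named, 33 have an exon overlapped by another gene, 7 of them on the same strand. Total counts lay between 12280709 and 17615185 per library, and CPM near 0 rest on a few counts.

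The counts were fitted with edgeR 4.0.16 (R 4.3.3): filterByExpr with a minimum count of 10, TMM, 1 model of all 15 libraries in 5 groups and quasi-likelihood tests with Benjamini-Hochberg adjustment over the 12172 genes kept. The model left 10 residual degrees of freedom, with 0.277 as the common biological coefficient of variation. DEGs passed an adjusted p-value of 0.05 and a log2 fold change of 1 in size. Libraries of the AAV8-p21 16 dpc group were used without a replicate number, since table and labels do not number them alike. The genes named were chosen by a rule: Alb, the 15 largest rises and falls with separate groups and a mean of at least 5 CPM in the higher group (not all are described). From each list came up to 6 DEGs each way and the 3 most abundant members, and genes the study follows were added. Promoters were chosen by their own part of the rule, at most 4 called members for each motif by adjusted p-value, which added Racgap1. The hepatocyte markers are given whole. A gene outside these is marked as named after its values were seen. The comparison, its gene lists and tests were chosen with earlier results of these data known. Lists are described by counts and medians, with no test of the list. DESeq2 1.42.0 and limma 3.58.1 were alternatives, with other scalings, filters, a replicate block and fits that omit 1 library. The code was also run on simulated counts with changes put in, and the outcome is not given here. Positions come from GENCODE on GRCm38, and promoters from RefSeq on GRCm38.p6.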

Additional observations from a re-analysis of the deposited data

How the results depend on the processing

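The 658 DEGs (308 higher, 350 lower) became 3174 (153 and 3021) with library size alone, which moved the median gene to -0.70. They became 1029 (468 and 561) with limma voom and sample weights, and 316 (160 and 156) with edgeR on the 6 compared libraries alone, which has fewer degrees of freedom. They were 924 by DESeq2 on all libraries, which called 651 of the 658. With 1 library left out they ranged from 248 to 1039, those higher from 140 to 415 and those lower from 108 to 624. The 334 AAV8-p21 DEGs became 1737 with library size alone, 557 by DESeq2 on all libraries, 673 by DESeq2 on the compared libraries and 869 with voom, and ranged from 154 to 393 with 1 library left out. The interaction stayed at 0 except for 14 genes by DESeq2 on the compared libraries. The cause of the changes under voom and DESeq2 was not tested.

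Replicate numbers did not pair the livers: same-numbered 8 dpc and 16 dpc libraries had correlations of 0.289, -0.271 and 0.203 in their deviations from the group means. With the replicate number as a block in the 12 libraries with numbered replicates 559 DEGs were called (269 higher, 290 lower), against 608 without the block.

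Reversed directions among the genes named were all of genes not called: C3 (-0.48), Apoe (-0.13), Glul (-0.56) and Slc45a3 (-0.13) with library size alone, Cps1 (0.16) without 16 dpc replicate 1 and Tbx3 (0.03) without 16 dpc replicate 2, the upper end of a range from -1.04. Of the 96 called genes named, 57 were called in all 6 fits that omit 1 library. Of 612 list medians under alternatives, 11 moved by more than the spread between libraries. Depth limits several mitotic genes, whose late levels rest on a few counts per library.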

Other observations

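Immediate-early genes, the fast transcriptional response to growth signals and stress, had the highest median of the pathway lists, 1.20 over 20 genes tested (0.51 with library size alone), with 6 called higher and none lower. Jun, a subunit of AP-1, had 17.9, 11.8 and 18.2 CPM at 8 dpc and 53.3, 72.7 and 48.1 CPM at 16 dpc (log2 fold change 1.86 ± 0.35, adjusted p = 0.00666, edgeR), and was called with any 1 of the 6 libraries left out. The list's count fell to 1 without 8 dpc replicate 1, 8 dpc replicate 2 or 16 dpc replicate 3 and to 2 without 16 dpc replicate 2. Among 21 p53 targets 2 rose and 1 fell (median -0.16), and 1 rose without 8 dpc replicate 1 or 2 or 16 dpc replicate 2 or 3. Of these Plk2, a polo-like kinase, stood at 10.1, 9.17 and 9.36 CPM and then at 58.9, 20.6 and 23.3 CPM (1.84 ± 0.32, adjusted p = 0.00388). Without 16 dpc replicate 1, its high library, Plk2 stayed called at 1.20.

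Amino acid transporters rose in 4 of 28 cases and fell in none (median -0.09), and 2 rose without 16 dpc replicate 3 and 2 fell without 16 dpc replicate 2. With library size alone 1 rose and 10 fell, with a median of -0.80. The glycine transporter Slc6a9 had 21.2, 21 and 31.3 CPM at 8 dpc and 282, 449 and 171 CPM at 16 dpc (3.62 ± 0.36, adjusted p = 4.8e-05), and its exons overlap B4galt2 on the other strand. The glutamate transporter Slc1a2 had 198, 193 and 189 CPM and then 464, 501 and 435 CPM (1.27 ± 0.22, adjusted p = 0.00439), one of the tightest changes among the genes named. Genes of iron handling rose in 4 and fell in 1 of 24 cases (median 0.22, -0.51 with library size alone), with 2 risers without 8 dpc replicate 1 and no faller without 8 dpc replicate 2. Besides Cp and Trf they included Smad6, an inhibitor of the BMP signal that controls hepcidin, at 3.08, 3.63 and 3.9 CPM and then at 13.7, 10.1 and 8.9 CPM (1.62 ± 0.24, adjusted p = 0.00144).

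Genes marking the zones of the hepatic lobule held calls in both directions. Of 22 periportal genes 4 rose and 4 fell (median -0.11), and of 23 pericentral and Wnt target genes 2 rose and 3 fell (median -0.43). The periportal secretory receptor Pigr had 1368, 1608 and 1127 CPM at 8 dpc and 798, 750 and 499 CPM at 16 dpc (-1.0 ± 0.25, adjusted p = 0.0269), and lost its call without 8 dpc replicate 1 or 2 or 16 dpc replicate 2 or 3. The calls in both zone lists depended on single libraries, with 0 to 4 periportal and 1 to 3 pericentral genes called lower when 1 was left out. Risers were 2 periportal and 1 pericentral without 8 dpc replicate 1 or 2 or 16 dpc replicate 2, 2 periportal without 16 dpc replicate 1 and 1 pericentral without 16 dpc replicate 3.

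A few of the largest falls belong to no list above. Adam11, a membrane protein of the nervous system, had 10.2, 22.7 and 14.6 CPM at 8 dpc and 0.357, 0.417 and 0.712 CPM at 16 dpc (-4.98 ± 0.54, adjusted p = 9.4e-05). Ildr2, a membrane protein of the endoplasmic reticulum tied to lipid balance, had 40.1, 55.7 and 66.8 CPM and then 2.05, 6.25 and 9.34 CPM (-3.20 ± 0.50, adjusted p = 0.00196). Gas1, a growth arrest gene of the cell surface, had 10.8, 18.3 and 8.69 CPM and then 2.5, 0.916 and 0.623 CPM (-3.23 ± 0.49, adjusted p = 0.0015). All 3 were separate between the stages and were called with any 1 of the 6 libraries left out, and with AAV8-p21 their log2 fold changes were -4.20, -3.18 and -2.13.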
